A study of Mus musculus with 12 samples.

Results

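The genes described here are the enzymes and carriers of amino acid breakdown and of the urea cycle in mouse liver, followed across glucocorticoid treatment and the HESKOL genotype. They were chosen by name: a list of 39 genes was matched to the array's non-control probes. A probe's gene name came first from its transcript record, and otherwise from the symbol or older name given for it. Of the 39, 37 had a probe and all 37 were tested, among 18713 tested features of 27799 (genes, and probes with no gene name). Gpt, given under its older name Gpt1 on the array, was matched by its transcript record, and Amt and Haao were not analysed here. The 37 genes had 47 probes, and each gene was read from its brightest probe. All 37 of these probes were well above background on all 12 arrays.

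Amino acids in surplus are stripped of their nitrogen by aminotransferases and dehydratases, and the carbon skeletons feed glucose synthesis, ketone formation or the citric acid cycle. In liver the nitrogen enters the urea cycle, which runs across the mitochondrial membrane and is densest in the hepatocytes around the portal vein. Glucocorticoids are known to raise several of these enzymes during fasting, and Tat and Tdo2 are classic glucocorticoid-inducible liver genes. Hes1 is a basic helix-loop-helix repressor of transcription, known as an effector of Notch signalling.

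The study measured liver RNA from 4 groups of 3 male C57BL/6 mice aged 8 to 10 weeks, with 1 mouse per single-colour array. The groups were untreated wild-type, dexamethasone-treated wild-type, untreated HESKOL and dexamethasone-treated HESKOL mice. Every mouse, controls included, had been adrenalectomized, so that its own glucocorticoids were removed. Treated mice had received dexamethasone, a synthetic glucocorticoid, at 1 mg/kg into the peritoneum, and livers were taken 6 hours later. A vehicle injection of the untreated mice is not described in the sources used here. The series title names Hes1, but the allele behind the name HESKOL, any driver of a deletion and the cells it reaches are not given in the sources used here. Whether the Hes1 probe lies within a deleted stretch is not given either, so its level is a weak check of the labels.

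The 12 arrays sat on 3 slides of 4. Slide 1 held the 3 untreated wild-type mice and untreated HESKOL mouse 1, slide 2 held untreated HESKOL mice 2 and 3 and treated wild-type mice 1 and 2, and slide 3 held treated wild-type mouse 3 and the 3 treated HESKOL mice. No slide held treated and untreated mice of the same genotype. Between 62.2% and 72.3% of the spots on an array were well above background, and the number of arrays limits the precision of every value. Levels below are log2 signals minus the 75th percentile of the same array, and a change is a difference between mean levels, given with its standard error (SE). Levels were compared only within a gene. A change passed the test where limma's adjusted p, over all 18713 features, was under 0.05.

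Hes1 was lower in each HESKOL group than in the wild-type group of the same treatment. It read -1.49, -1.22 and -1.90 in untreated wild-type livers and -2.46, -2.40 and -3.09 in untreated HESKOL livers. In treated livers it read -1.16, -2.57 and -2.92 in wild type and -3.08, -3.02 and -3.85 in HESKOL. The genotypes did not overlap within a treatment, but 2 treated wild-type mice, 2 and 3, lay below untreated HESKOL mice 1 and 2. The genotype difference averaged over treatments was -1.11 ± 0.30 (SE), with an unadjusted p of 0.00382 and an adjusted p of 0.245, so it did not pass the test across all features. Within a slide, the mean difference was -0.93 on slide 1, untreated, and -0.40 on slide 3, treated.

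Promoter windows of the members are shown because 4 of them carried the lowest adjusted p-values after dexamethasone in HESKOL liver. RefSeq windows (build GRCm38.p6) of 250 bases before the first listed start of each gene were matched by symbol for 30 of the 39 listed genes. For Slc25a15 the table held 2 windows and the first was taken. The windows are those of Got1 (chr19:43524606-43524855, minus strand), Slc25a15 (chr8:22398622-22398871, minus strand), Tdo2 (chr3:81975729-81975978, minus strand) and Aass (chr6:23132987-23133236, minus strand). They are printed 5′ to 3′ and end at the base before the start. Capitals mark matches, on either strand, to any of the motifs named in the next paragraph.
Got1: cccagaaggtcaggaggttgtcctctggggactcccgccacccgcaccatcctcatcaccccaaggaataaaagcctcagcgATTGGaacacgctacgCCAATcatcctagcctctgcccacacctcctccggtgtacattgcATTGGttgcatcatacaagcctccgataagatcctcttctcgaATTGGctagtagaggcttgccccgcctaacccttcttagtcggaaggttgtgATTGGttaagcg
Slc25a15: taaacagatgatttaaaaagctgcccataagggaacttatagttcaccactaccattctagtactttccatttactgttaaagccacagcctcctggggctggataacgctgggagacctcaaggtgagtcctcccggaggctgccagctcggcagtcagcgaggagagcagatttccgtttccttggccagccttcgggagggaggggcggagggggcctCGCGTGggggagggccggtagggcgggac
Tdo2: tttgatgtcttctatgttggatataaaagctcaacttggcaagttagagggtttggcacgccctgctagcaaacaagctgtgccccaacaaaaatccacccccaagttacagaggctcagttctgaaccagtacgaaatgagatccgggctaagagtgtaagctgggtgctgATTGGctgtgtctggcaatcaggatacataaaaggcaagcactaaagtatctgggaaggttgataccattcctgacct
Aass: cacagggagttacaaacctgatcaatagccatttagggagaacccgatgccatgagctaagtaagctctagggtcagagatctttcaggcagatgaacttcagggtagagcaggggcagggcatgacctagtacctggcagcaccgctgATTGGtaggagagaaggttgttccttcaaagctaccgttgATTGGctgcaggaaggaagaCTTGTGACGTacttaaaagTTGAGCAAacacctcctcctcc

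The motifs searched were the glucocorticoid receptor hexamer TGTTCT, the cyclic AMP response element TGACGTCA and its shorter core TGACGT, the CEBP site TTGCNNAA, the N-box CACNAG and the class C E-box CACGNG, both known as sites of Hes proteins, and the CAAT box CCAAT. The core TGACGT lies within TGACGTCA, so these overlap. The CAAT box was added after the windows had been read. None of the 4 printed windows held TGTTCT, which was in 2 of the 30 member windows (Bckdhb and Haao) and in 16.2% of all 27025 windows. TGACGTCA was in 0 of the 30 and in 1.62% of all. The Aass window held TGACGT at position -37 from the start, an overlapping N-box at -41 and a CEBP site at -22. TGACGT was in 1 of the 30 member windows and 6.56% of all, TTGCNNAA in 3 and 9.55%, and CACNAG in 8 and 36.7%. The Slc25a15 window held a class C E-box at -29, a motif found in 9 member windows and 23.7% of all. CCAAT was in 17 of the 30 member windows and 34.5% of all, with 5 matches in Got1 between -168 and -12. These matches describe letters only, and the files hold no measurement of binding.

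In HESKOL liver dexamethasone raised 12 of the 37 genes and lowered none of them past the threshold. The 12 were Tat, Tdo2, Got1, Gpt2, Sds, Mat1a, Bhmt, Aass, Cps1, Asl, Arg1 and Slc25a15, with rises from 1.80-fold in Bhmt to 6.59-fold in Got1. Over all features 7.86% were called in this comparison and 3.63% were called higher. The median change of the 37 genes was 0.69, beside a median of 0 over all features. In wild-type liver none of the 37 passed, where 0.198% of all features were called and the median change was 0.15. By limma 6 of the 37 had an unadjusted p under 0.05 there, beside 11.8% of all features. The SEs of the 2 comparisons were alike because all groups shared one estimate of the spread. The plot of changes by role shows both responses for every gene.

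**Figure D1:**
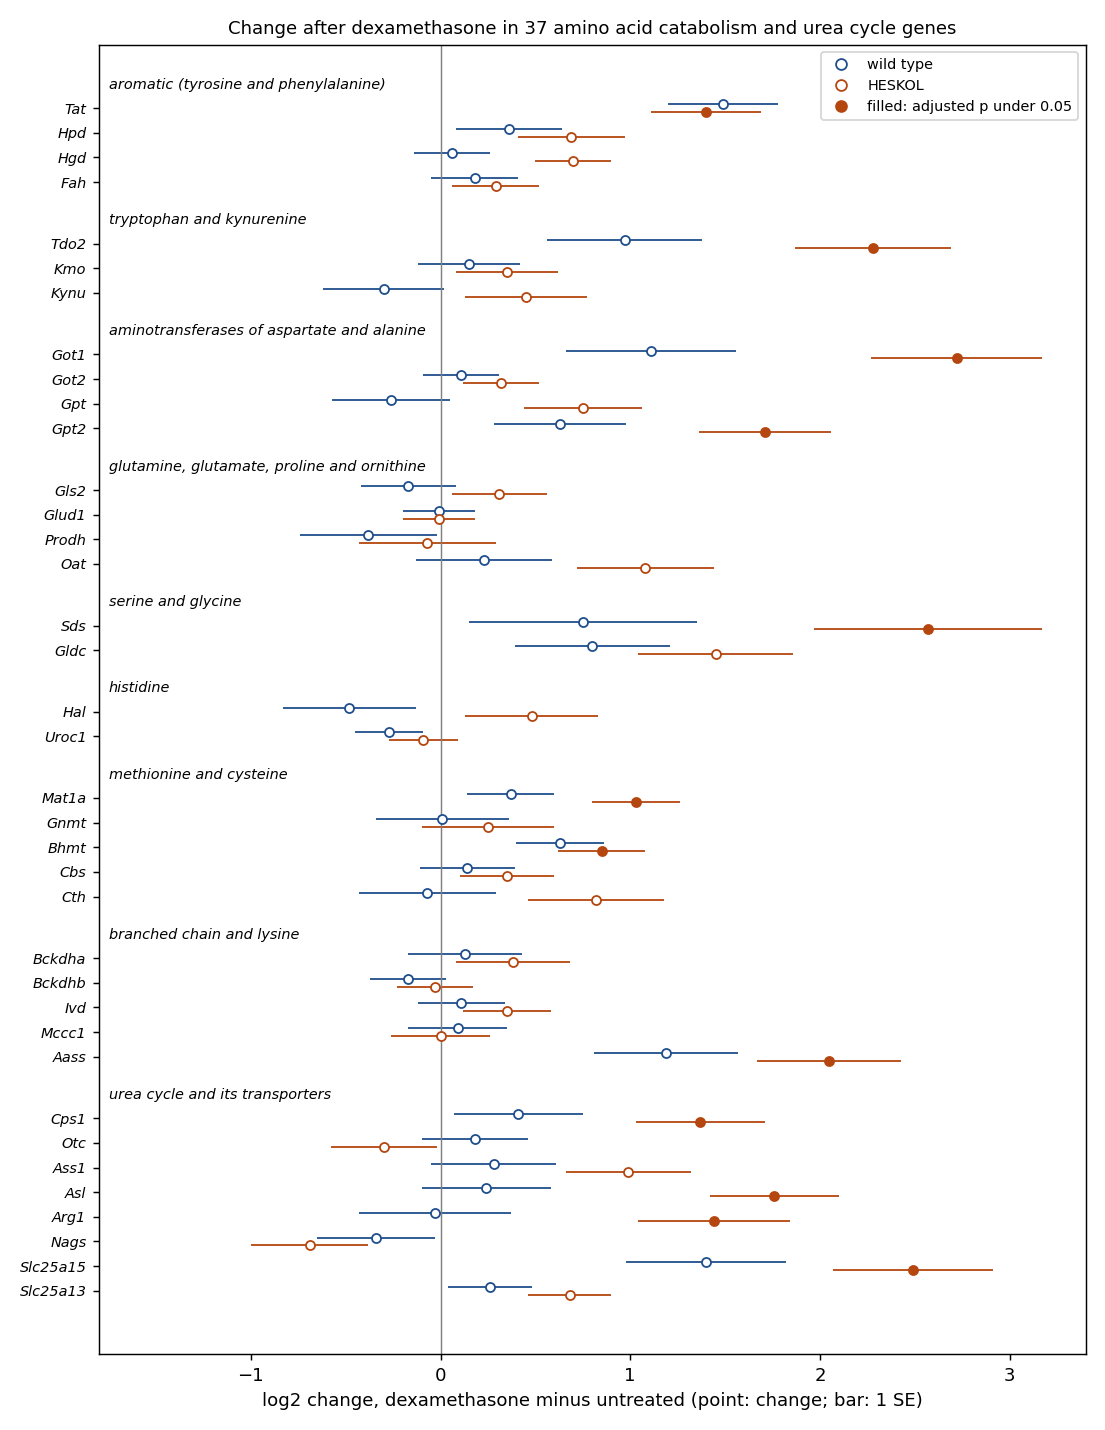
Log2 change after dexamethasone in wild-type (blue) and HESKOL (orange) liver for the 37 genes, grouped by role, with bars of 1 SE and filled points where the adjusted p was under 0.05. The 12 filled points are all HESKOL changes above 0, and the wild-type and HESKOL points of Tat lie close together, at 1.49 and 1.40, the latter with 1 saturated spot.

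Without regard to the fit, the 3 treated HESKOL levels lay above the 3 untreated ones in 20 of the 37 genes and below them in 1, Nags. Over all features 15.5% lay above and 18.7% below. In wild type 4 genes lay above, Tat, Bhmt, Aass and Slc25a15, against 6.12% of all features. Uroc1 lay below, as did 1116 of the 18713 features. The same 4 lay above in both genotypes, against 2.94% of all features. Across the 37 genes the wild-type and HESKOL changes had a Pearson r of 0.784 and the same sign in 30, or 81.1%. Over all features r was 0.586 and 70.1% had the same sign. These points come from the same 12 arrays, and genes are not independent replicates.

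**Figure D2:**
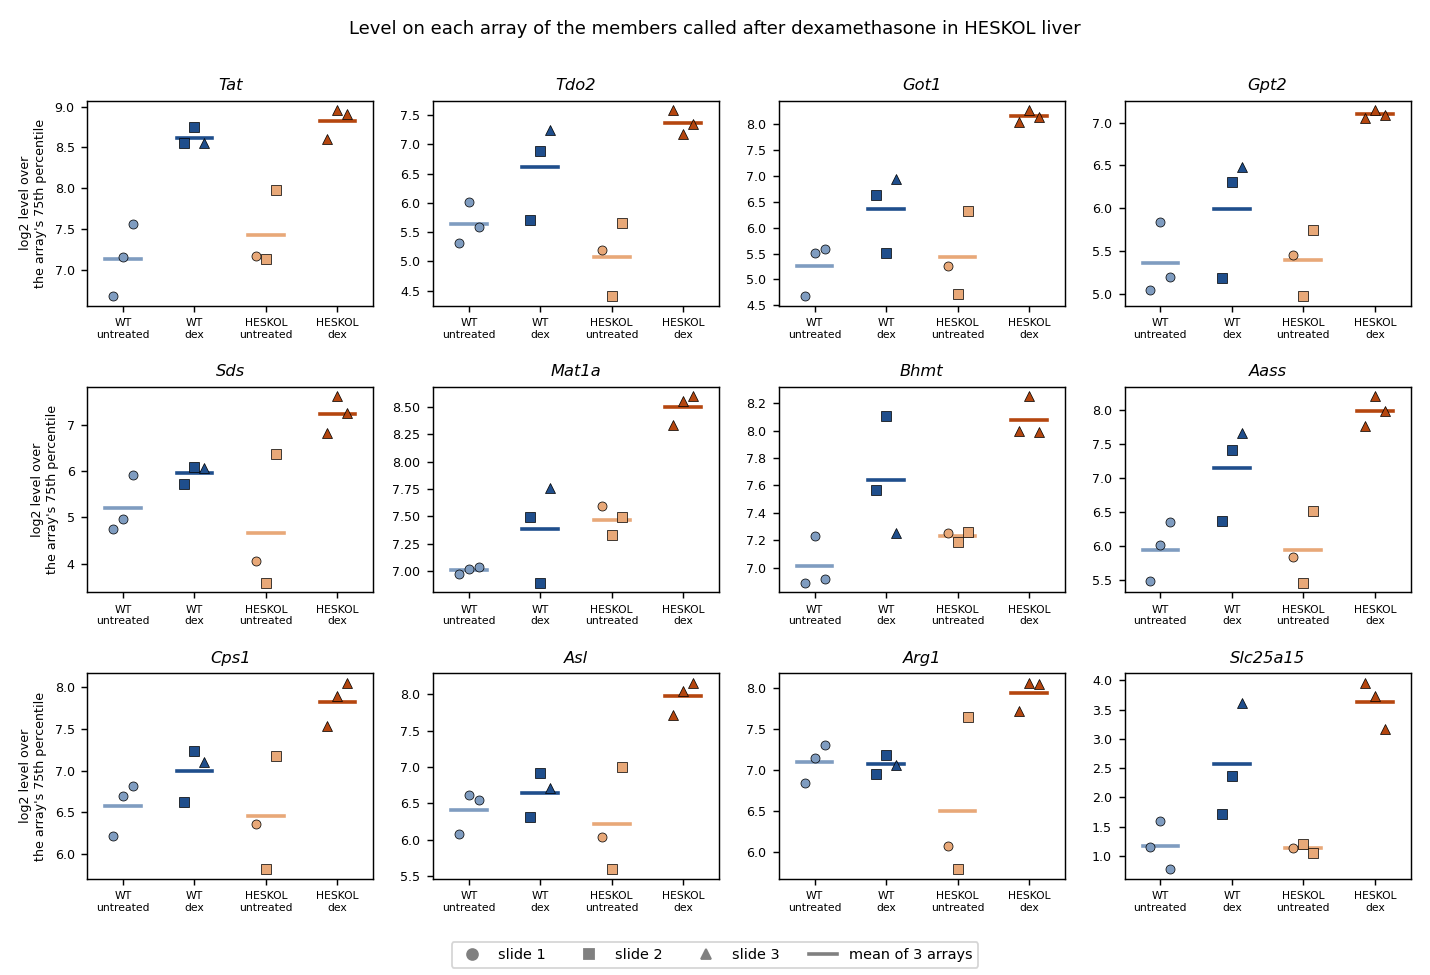
Level on each array (log2 over the array's 75th percentile, y axis) of the 12 genes called after dexamethasone in HESKOL liver, with lines at the group mean of 3 arrays and marker shapes for the slide. Treated HESKOL mice sit above all untreated HESKOL mice in every panel, and Got1, Gpt2, Sds, Mat1a, Aass, Cps1, Asl and Arg1 sit above all treated wild-type mice too.

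Of the 4 enzymes of tyrosine breakdown, Tat passed the test in HESKOL liver and the other 3 did not. Tat, tyrosine aminotransferase, takes the first step. It read 6.67, 7.16 and 7.56 in untreated wild-type and 8.55, 8.75 and 8.55 in treated wild-type livers. In HESKOL it read 7.17, 7.13 and 7.98 untreated and 8.60, 8.96 and 8.91 treated, with the spot saturated on 1 treated HESKOL array. Every treated liver of either genotype was above every untreated one. The change was 1.40 ± 0.29 in HESKOL (2.64-fold, adjusted p = 0.0175) and 1.49 ± 0.29 in wild type (2.80-fold, adjusted p = 0.0933). The saturated spot was kept at its value, so the HESKOL level and change of Tat, and the difference of the responses of -0.09 ± 0.40, may be understated. Downstream, Hpd, which makes homogentisate, gave 0.69 ± 0.28 in HESKOL, Hgd, which opens its ring, 0.70 ± 0.20 (adjusted p = 0.0534) and Fah, the last enzyme, 0.29 ± 0.23. In wild type these 3 gave 0.36 ± 0.28, 0.06 ± 0.20 and 0.18 ± 0.23.

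Tdo2, tryptophan dioxygenase, commits tryptophan to the kynurenine pathway. Of the 3 tested genes listed for that pathway, Tdo2 alone passed, in HESKOL liver (Acmsd, outside the list, is given below). It read 5.31, 6.02 and 5.59 in untreated wild-type and 5.70, 6.88 and 7.24 in treated wild-type livers. Treated wild-type mouse 1 lay within the untreated range and mice 2 and 3 above it. In HESKOL Tdo2 read 5.19, 4.40 and 5.65 untreated and 7.59, 7.17 and 7.34 treated, with no overlap. The change was 2.28 ± 0.41 in HESKOL (4.87-fold, adjusted p = 0.0108) and 0.97 ± 0.41 in wild type (adjusted p = 0.397), and a second Tdo2 probe gave 1.93 and 0.80. Kmo, which hydroxylates kynurenine, gave 0.35 ± 0.27 in HESKOL and 0.15 ± 0.27 in wild type. Kynu, kynureninase, gave 0.45 ± 0.32 and -0.30 ± 0.32.

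Among the aminotransferases of aspartate and alanine, the cytosolic Got1 and the mitochondrial Gpt2 rose in HESKOL liver, while the mitochondrial Got2 and the cytosolic Gpt did not pass. Got1, aspartate aminotransferase, read 4.67, 5.51 and 5.59 in untreated wild-type and 6.64, 5.51 and 6.94 in treated wild-type livers. The HESKOL readings were 5.26, 4.71 and 6.32 untreated and 8.05, 8.28 and 8.14 treated. The 3 treated HESKOL livers were above all 9 others, and treated wild-type mouse 2 lay at an untreated level. The Got1 change was 2.72 ± 0.45 in HESKOL (6.59-fold, adjusted p = 0.00812), the largest of the 37 genes, and 1.11 ± 0.45 in wild type (adjusted p = 0.376). Gpt2, which interconverts alanine and pyruvate in mitochondria, read 5.04, 5.84 and 5.20, then 5.19, 6.31 and 6.48, in untreated and treated wild type. Its HESKOL levels were 5.46, 4.97 and 5.75 untreated and 7.06, 7.15 and 7.09 treated. It rose by 1.71 ± 0.35 in HESKOL (3.26-fold, adjusted p = 0.0179), with 0.63 ± 0.35 in wild type. Gpt, the cytosolic form, read 5.72, 6.38 and 6.46, then 6.10, 6.14 and 5.55, in wild type. HESKOL livers gave 6.37, 5.75 and 6.55 untreated and 6.50, 7.29 and 7.14 treated, so that the groups overlapped. Its changes were 0.75 ± 0.31 in HESKOL (adjusted p = 0.167) and -0.26 ± 0.31 in wild type, and Got2 gave 0.32 ± 0.20 and 0.11 ± 0.20.

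Sds, serine dehydratase, which turns serine into pyruvate, rose in HESKOL liver and had the widest spread among untreated HESKOL mice. It read 4.75, 4.97 and 5.92 in untreated wild-type and 5.73, 6.10 and 6.07 in treated wild-type livers. In HESKOL it read 4.06, 3.58 and 6.38 untreated and 6.83, 7.63 and 7.27 treated. Untreated HESKOL mouse 3 was above all 3 treated wild-type mice, while mice 1 and 2 were the lowest of all 12. The change was 2.57 ± 0.60 in HESKOL (5.94-fold, adjusted p = 0.0282) and 0.75 ± 0.60 in wild type. Gldc, the decarboxylase of the glycine cleavage system, read 2.83, 3.11 and 2.87, then 3.1, 4.51 and 3.60, in wild type. Its HESKOL levels were 2.17, 2.55 and 3.71 untreated and 4.16, 4.30 and 4.31 treated. It gave 1.45 ± 0.41 in HESKOL (adjusted p = 0.0536) and 0.80 ± 0.41 in wild type, and passed only in the average of the 2 responses.

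Neither gene of histidine breakdown passed with dexamethasone. Hal, histidine ammonia-lyase, read 4.77, 5.34 and 5.54 in untreated and 5.31, 4.81 and 4.11 in treated wild-type livers. The HESKOL readings were 5.48, 5.15 and 5.84 untreated and 5.66, 6.48 and 5.78 treated. Treated HESKOL mice lay above treated wild-type mice, but not above all untreated ones of their own genotype. The changes were 0.48 ± 0.35 and -0.48 ± 0.35. Uroc1, urocanase, the next enzyme, gave -0.09 ± 0.18 in HESKOL and -0.27 ± 0.18 in wild type.

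Of the 5 genes of methionine and cysteine metabolism, Mat1a and Bhmt rose in HESKOL liver. Mat1a, which makes S-adenosylmethionine from methionine, read 6.97, 7.02 and 7.04 in untreated wild-type and 7.49, 6.89 and 7.76 in treated wild-type livers. HESKOL livers gave 7.59, 7.33 and 7.49 untreated and 8.34, 8.56 and 8.60 treated. The untreated genotypes did not overlap, and the 3 treated HESKOL livers were the highest of the 12. Mat1a rose by 1.03 ± 0.23 in HESKOL (2.04-fold, adjusted p = 0.023), with 0.37 ± 0.23 in wild type. Bhmt, which remethylates homocysteine with betaine, read 6.89, 7.23 and 6.92, then 7.57, 8.11 and 7.25, in wild type. Its HESKOL levels were 7.25, 7.19 and 7.26 untreated and 8.00, 8.25 and 7.99 treated. Treated and untreated mice did not overlap in either genotype, although the gap in wild type, from 7.23 to 7.25, was small. Bhmt rose by 0.85 ± 0.23 in HESKOL (1.80-fold, adjusted p = 0.0488), with 0.63 ± 0.23 in wild type (adjusted p = 0.329). Cth, which releases cysteine from cystathionine, gave 0.82 ± 0.36 in HESKOL and -0.07 ± 0.36 in wild type. Cbs, which makes cystathionine, gave 0.35 ± 0.25 and 0.14 ± 0.25, and Gnmt, which uses surplus S-adenosylmethionine, 0.25 ± 0.35 and 0.01 ± 0.35.

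In the group of branched chain and lysine breakdown Aass alone rose. Aass, which begins lysine breakdown, read 5.49, 6.01 and 6.35 in untreated wild-type and 6.37, 7.41 and 7.66 in treated wild-type livers. In HESKOL it read 5.84, 5.46 and 6.52 untreated and 7.76, 8.20 and 7.99 treated. Treated livers lay above untreated ones in both genotypes, by a narrow margin in wild-type mouse 1. The change was 2.05 ± 0.38 in HESKOL (4.13-fold, adjusted p = 0.0116) and 1.19 ± 0.38 in wild type (adjusted p = 0.258). The 4 branched chain genes had smaller values. Bckdha and Bckdhb, the subunits of the branched chain keto acid dehydrogenase, gave 0.38 ± 0.30 and -0.03 ± 0.20 in HESKOL. Ivd and Mccc1, of leucine breakdown, gave 0.35 ± 0.23 and 0.00 ± 0.26. In wild type the 4 ran from -0.17 ± 0.20 in Bckdhb to 0.13 ± 0.30 in Bckdha.

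None of the 4 genes of glutamine, glutamate, proline and ornithine passed. Oat, ornithine aminotransferase, had the largest change of them, 1.08 ± 0.36 in HESKOL (adjusted p = 0.0906) and 0.23 ± 0.36 in wild type. Gls2, the liver glutaminase, gave 0.31 ± 0.25 and -0.17 ± 0.25. Glud1, glutamate dehydrogenase, gave -0.01 ± 0.19 in both genotypes. Prodh, proline dehydrogenase, gave -0.07 ± 0.36 and -0.38 ± 0.36.

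Of the 8 genes of the urea cycle and its carriers, Cps1, Asl, Arg1 and Slc25a15 rose in HESKOL liver, and none passed in wild type. Cps1, carbamoyl phosphate synthetase, takes in ammonia at the start of the cycle. It read 6.22, 6.70 and 6.82 in untreated wild-type and 6.63, 7.24 and 7.10 in treated wild-type livers. The HESKOL readings were 6.36, 5.82 and 7.18 untreated and 7.53, 7.89 and 8.05 treated. The treated HESKOL livers were above the other 9. Cps1 rose by 1.37 ± 0.34 in HESKOL (2.59-fold, adjusted p = 0.0337), with 0.41 ± 0.34 in wild type.

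Otc, which joins carbamoyl phosphate to ornithine in the next step, did not pass in any comparison. It read 5.29, 5.65 and 6.03, then 5.90, 5.98 and 5.65, in untreated and treated wild type. HESKOL livers gave 5.80, 5.11 and 6.07 untreated and 5.60, 5.32 and 5.15 treated, and treated and untreated mice overlapped in both genotypes. The change was -0.30 ± 0.28 in HESKOL (adjusted p = 0.556) and 0.18 ± 0.28 in wild type. The 3 treated HESKOL levels lay below the lowest treated wild-type level, with a difference of -0.48 ± 0.28 (adjusted p = 0.44). On the 2 other Otc probes treated HESKOL and treated wild-type mice overlapped, with differences of -0.44 and -0.47. Dexamethasone changes on these probes were -0.42 and -0.69 in HESKOL.

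Ass1, argininosuccinate synthetase, gave 0.99 ± 0.33 in HESKOL (adjusted p = 0.0898) and 0.28 ± 0.33 in wild type, and its second probe gave 1.00 and 0.30. Asl, argininosuccinate lyase, read 6.08, 6.61 and 6.55 in untreated wild-type and 6.31, 6.92 and 6.71 in treated wild-type livers. In HESKOL it read 6.04, 5.59 and 7.0 untreated and 7.71, 8.05 and 8.16 treated. Wild-type mice overlapped between treatments and HESKOL mice did not. Asl rose by 1.76 ± 0.34 in HESKOL (3.39-fold, adjusted p = 0.0136), with 0.24 ± 0.34 in wild type.

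Arg1, arginase, which releases urea, read 6.85, 7.15 and 7.31 in untreated wild-type and 6.96, 7.19 and 7.07 in treated wild-type livers, with full overlap. The HESKOL readings were 6.08, 5.79 and 7.65 untreated and 7.72, 8.07 and 8.06 treated. Untreated HESKOL mice 1 and 2 were the lowest of the 12, and mouse 3 was just below the lowest treated HESKOL mouse. Arg1 rose by 1.44 ± 0.40 in HESKOL (2.72-fold, adjusted p = 0.0487), with -0.03 ± 0.40 in wild type.

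Slc25a15 carries ornithine into mitochondria. It read 1.16, 1.59 and 0.77 in untreated wild-type and 1.72, 2.37 and 3.62 in treated wild-type livers. HESKOL livers gave 1.14, 1.20 and 1.05 untreated and 3.96, 3.74 and 3.17 treated. Treated and untreated mice did not overlap in either genotype, and treated wild-type mouse 3 lay within the treated HESKOL range. The change was 2.49 ± 0.42 in HESKOL (5.63-fold, adjusted p = 0.00827) and 1.40 ± 0.42 in wild type (adjusted p = 0.229). Slc25a13, the mitochondrial aspartate and glutamate carrier, gave 0.68 ± 0.22 in HESKOL (adjusted p = 0.0813) and 0.26 ± 0.22 in wild type. Nags, which makes the activator of Cps1, went the other way, at -0.69 ± 0.31 in HESKOL (adjusted p = 0.196) and -0.34 ± 0.31 in wild type. Its second probe gave -0.57 in HESKOL, where treated and untreated mice overlapped on that probe.

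**Figure D3:**
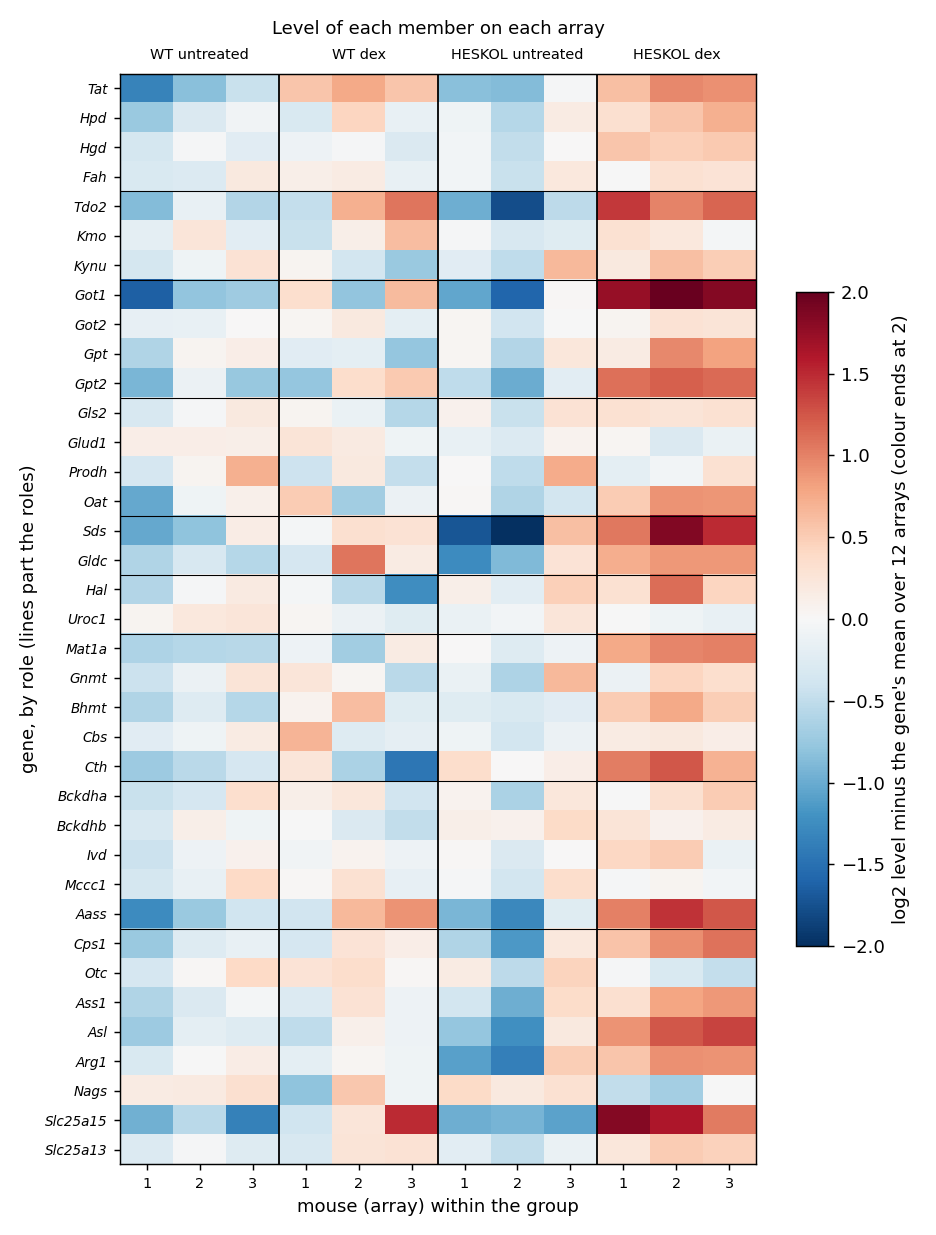
Level of each of the 37 genes (rows, by role) on each of the 12 arrays (columns, by group), as the log2 difference from the gene's own mean, with red above and blue below it. The treated HESKOL columns are red for most genes, and of the untreated HESKOL mice number 2 is mostly blue and number 3 mostly near white or pale red, with median deviations of -0.51 and 0.19.

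The untreated HESKOL mice lay apart from each other in these genes, as a description with no test. The median deviation of the 37 genes from their means was -0.09, -0.51 and 0.19 in untreated HESKOL mice and 0.32, 0.60 and 0.51 in treated ones. In wild type it was -0.45, -0.12 and 0.01 untreated and -0.05, 0.18 and -0.10 treated. Each mouse was also set against the mean of the other mice of its group. The root mean square deviation of the 37 genes from that mean was 0.310, 0.669 and 0.821 in untreated HESKOL mice 1, 2 and 3. It was between 0.256 and 0.329 in the treated HESKOL mice. Over all features the largest such deviation was 0.994, in treated wild-type mouse 1.

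The HESKOL calls changed when 1 mouse was left out. Leaving out untreated HESKOL mouse 1, untreated HESKOL mouse 2 or treated HESKOL mouse 2 left 3 genes called, Tdo2, Got1 and Slc25a15, and leaving out treated HESKOL mouse 3 left these and Aass. Leaving out any of the other mice left between 8 and 16 called. Without treated wild-type mouse 1, 4 genes rose in wild type: Tat by 1.52 ± 0.32 (adjusted p = 0.026), Tdo2 by 1.42 ± 0.35 (adjusted p = 0.0457), Aass by 1.58 ± 0.34 (adjusted p = 0.0272) and Slc25a15 by 1.82 ± 0.38 (adjusted p = 0.025). In that fit 16 of the 37 rose in HESKOL, with Hgd, Oat, Gldc and Slc25a13 added. Counts from fits that left out 1 mouse, here and below, are given without the share of all features called in the same fit. A shift in them cannot be read as particular to these genes.

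Averaged over the genotypes, dexamethasone raised 12 of the 37 genes, where 11.8% of all features were called and 5.27% were called higher. They were Gldc and the HESKOL-called genes other than Arg1. The changes ranged from 0.70 ± 0.16 in Mat1a (adjusted p = 0.0219) to 1.95 ± 0.30 in Slc25a15 (adjusted p = 0.0038), and Tat had the lowest adjusted p, 0.00287, with 1.44 ± 0.20. For Gldc the average was 1.12 ± 0.29 (2.18-fold, adjusted p = 0.0313). Between 7 and 14 genes passed when 1 mouse was left out, with 7 without untreated wild-type mouse 1, untreated HESKOL mouse 2, treated HESKOL mouse 2 or treated HESKOL mouse 3.

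The difference between the HESKOL and wild-type responses was tested directly, and none of the 37 genes passed. By limma 6 had an unadjusted p under 0.05, beside 6.64% of all features: Asl (1.53 ± 0.48), Arg1 (1.47 ± 0.56), Got1 (1.61 ± 0.64), Hgd (0.64 ± 0.28), Gpt (1.01 ± 0.44) and Tdo2 (1.32 ± 0.58). The lowest adjusted p was 0.562, in Asl, and 0.016% of all features passed. The change was larger in HESKOL for 32 of the 37 genes, beside 9368 of the 18713 features. The median difference was 0.48, beside 0 over all features. The 95% confidence interval of the difference ran from -0.98 to 0.80 in Tat and from -0.21 to 2.40 in Slc25a15. With 3 mice a group, a larger response in HESKOL was not shown for any single gene.

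Between the genotypes without treatment, none of the 37 genes passed, and 0% of all features did. By limma none of the 37 had an unadjusted p under 0.05, beside 1.59% of all features. The median difference was 0.02. After dexamethasone Mat1a alone was higher in HESKOL, by 1.12 ± 0.23 (2.17-fold, adjusted p = 0.0469), where 1.14% of all features passed and 0.695% were higher. Mat1a passed in only 2 of the 12 fits that left out 1 mouse. At an unadjusted p under 0.05, a level that 15.7% of all features reached, there were another 13 genes, led by Cth at 1.60 ± 0.36 (3.03-fold, adjusted p = 0.0614), Got1 at 1.79 ± 0.45 (adjusted p = 0.087) and Asl at 1.32 ± 0.34 (adjusted p = 0.0903). Hal gave 1.23 ± 0.35 and Gpt 1.05 ± 0.31. Cth read 6.49, 5.61 and 4.80 in treated wild-type and 7.26, 7.49 and 6.94 in treated HESKOL livers, with no overlap. The untreated genotypes did not overlap in Cth either, at 5.52, 5.70 and 5.90 in wild type and 6.59, 6.25 and 6.37 in HESKOL. The untreated difference was 0.70 ± 0.36, and averaged over treatments it was 1.15 ± 0.25 (adjusted p = 0.132). After dexamethasone Cth passed without treated wild-type mouse 1 (2.03 ± 0.28, adjusted p = 0.0112). The treated HESKOL levels lay above the treated wild-type ones in 16 of the 37 genes, against 10.5% of all features. They lay below in 1 of the 37, Otc, and in 1440 of the 18713 features. Of the 37 differences 33 were above 0, beside 9996 of the 18713 features. This comparison and the HESKOL response share the 3 treated HESKOL arrays, so their values are not independent. Averaged over treatments no gene passed, and 0.251% of all features did. By limma 9 had an unadjusted p under 0.05, all higher in HESKOL, beside 10.1% of all features.

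Slide and group were entangled. With slide as a term in the limma fit none of the 37 genes passed in any comparison, with 7 at an unadjusted p under 0.05 for dexamethasone in HESKOL and 0 in wild type. None of the 18713 features passed in a dexamethasone comparison either, with 1201 at an unadjusted p under 0.05 in HESKOL and 609 in wild type. So no dexamethasone call given here, of members, regulators or markers, remained. The SEs of the dexamethasone changes grew. The HESKOL changes were then 1.77 ± 0.86 in Got1, 2.10 ± 1.19 in Sds, 1.39 ± 0.75 in Tdo2, 1.37 ± 0.57 in Tat, 1.23 ± 0.71 in Aass and 0.93 ± 0.57 in Slc25a15. Bhmt was larger with slide, at 1.44 ± 0.41, Cth likewise at 2.17 ± 0.51, and Mat1a smaller at 0.53 ± 0.40. The median over the 37 genes was 0.95 in HESKOL, against 0.69 without slide, and 0.26 in wild type. The median of all features with slide in the fit is not given here. On slide 3 alone, which held 1 treated wild-type and 3 treated HESKOL mice, the difference was 2.43 in Cth, 1.86 in Hal, 1.43 in Gpt, 1.26 in Asl, 1.21 in Got1, 0.74 in Mat1a and 0.00 in Slc25a15. On slide 1 the untreated HESKOL mouse differed from the mean of the 3 wild-type mice by 0.89 in Cth, 0.58 in Mat1a, -1.15 in Sds and -1.02 in Arg1. The part of slide in the dexamethasone changes was not tested beyond this.

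Among 10 regulators of these pathways Ppargc1a, a coactivator of fasting metabolism, rose in HESKOL liver. It read -1.19, -0.43 and -0.58 in untreated wild-type and -0.34, -0.13 and 0.57 in treated wild-type livers. In HESKOL it read -0.66, -0.63 and 0.16 untreated and 2.87, 3.41 and 2.78 treated, above all 9 others. Ppargc1a rose by 3.39 ± 0.33 in HESKOL (10.5-fold, adjusted p = 0.00101), with 0.77 ± 0.33 in wild type (adjusted p = 0.402). After dexamethasone it was 2.98 ± 0.33 higher in HESKOL than in wild type (adjusted p = 0.00315), 2.44 on slide 3 alone, and it passed in all 12 fits that left out 1 mouse. With slide in the fit neither call remained: Ppargc1a gave 2.44 ± 0.57 in HESKOL (adjusted p = 0.516) and 2.44 ± 0.43 between the genotypes after dexamethasone (adjusted p = 0.123). Its difference of responses was 2.62 ± 0.47 with an unadjusted p of 0.00016 and an adjusted p of 0.182. A second Ppargc1a probe gave 3.16 in HESKOL and 0.80 in wild type.

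Cebpb, a transcription factor of the acute phase and of gluconeogenesis, gave 0.99 ± 0.28 in wild type (adjusted p = 0.204) and 0.92 ± 0.28 in HESKOL (adjusted p = 0.0663). It passed in the average, at 0.96 ± 0.20 (adjusted p = 0.0137), and the 2 responses differed by -0.08 ± 0.39 (95% confidence interval -0.94 to 0.78). A second Cebpb probe gave 1.52 in wild type and 1.17 in HESKOL. Foxo1, a fasting factor held back by insulin, passed in the average too, at 1.04 ± 0.24 (adjusted p = 0.0224), though in only 6 of the 12 fits with 1 mouse left out. Klf15, a driver of amino acid breakdown, gave 1.11 ± 0.43 in HESKOL and 0.58 ± 0.43 in wild type, and its second probe gave 1.27 and 0.60. Nr3c1, the glucocorticoid receptor itself, gave -0.51 ± 0.18 in HESKOL (adjusted p = 0.114) and -0.14 ± 0.18 in wild type. Its other probes gave smaller changes in HESKOL, of -0.40, -0.35 and -0.20, with -0.09, 0.09 and 0.23 in wild type.

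Of 56 other tested genes of amino acid breakdown, 5 rose in HESKOL liver and none fell. Over all features 7.86% were called in that comparison and 3.63% were called higher. In wild type none of the 56 passed, beside 0.198% of all features. The lowest p-values there were those of Sdsl, Ppm1k (-0.79 ± 0.27) and Arg2 (1.52 ± 0.52), and a second Ppm1k probe gave -0.40. Acmsd, of tryptophan breakdown, rose by 3.51 ± 0.69 (11.4-fold, adjusted p = 0.0152). It read -5.17, -4.88 and -3.1 untreated and -1.20, -0.56 and -0.88 treated in HESKOL. In wild type it read -3.86, -3.57 and -4.57, then -4.26, -1.56 and -1.90. Sdsl, a relative of Sds, rose by 2.80 ± 0.47 (6.98-fold, adjusted p = 0.00835), with 1.47 ± 0.47 in wild type (adjusted p = 0.266). Slc25a22, a mitochondrial glutamate carrier, rose by 2.07 ± 0.39 (adjusted p = 0.0131), Cdo1, of cysteine breakdown, by 1.02 ± 0.21 (adjusted p = 0.0186) and Dhtkd1, of lysine breakdown, by 0.99 ± 0.27 (adjusted p = 0.0467). Sdsl passed in all 12 fits with 1 mouse left out. Acmsd passed in 9 of them, not without untreated HESKOL mouse 1 or 2 or treated HESKOL mouse 2. Slc25a22 passed in 10, Cdo1 in 8 and Dhtkd1 in 4. With slide in the fit none of the 5 passed in HESKOL: Acmsd gave 2.09 ± 1.28, Sdsl 1.20 ± 0.75, Slc25a22 0.78 ± 0.56, Cdo1 0.75 ± 0.41 and Dhtkd1 1.54 ± 0.51, with adjusted p-values from 0.699 (Dhtkd1) to 0.863 (Slc25a22). On slide 3 alone treated HESKOL mice exceeded the treated wild-type mouse by 0.14 in Sdsl and 1.46 in Dhtkd1. The median change of the 56 genes was 0.12 in HESKOL and -0.04 in wild type, beside 0 and -0.02 over all features. Glul, which makes glutamine in the hepatocytes around the central vein, gave 0.25 ± 0.29 in HESKOL and -0.03 ± 0.29 in wild type. A second Glul probe gave 0.47 in HESKOL and 0.96 in wild type, so the probes differed most in wild type.

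**Figure D4:**
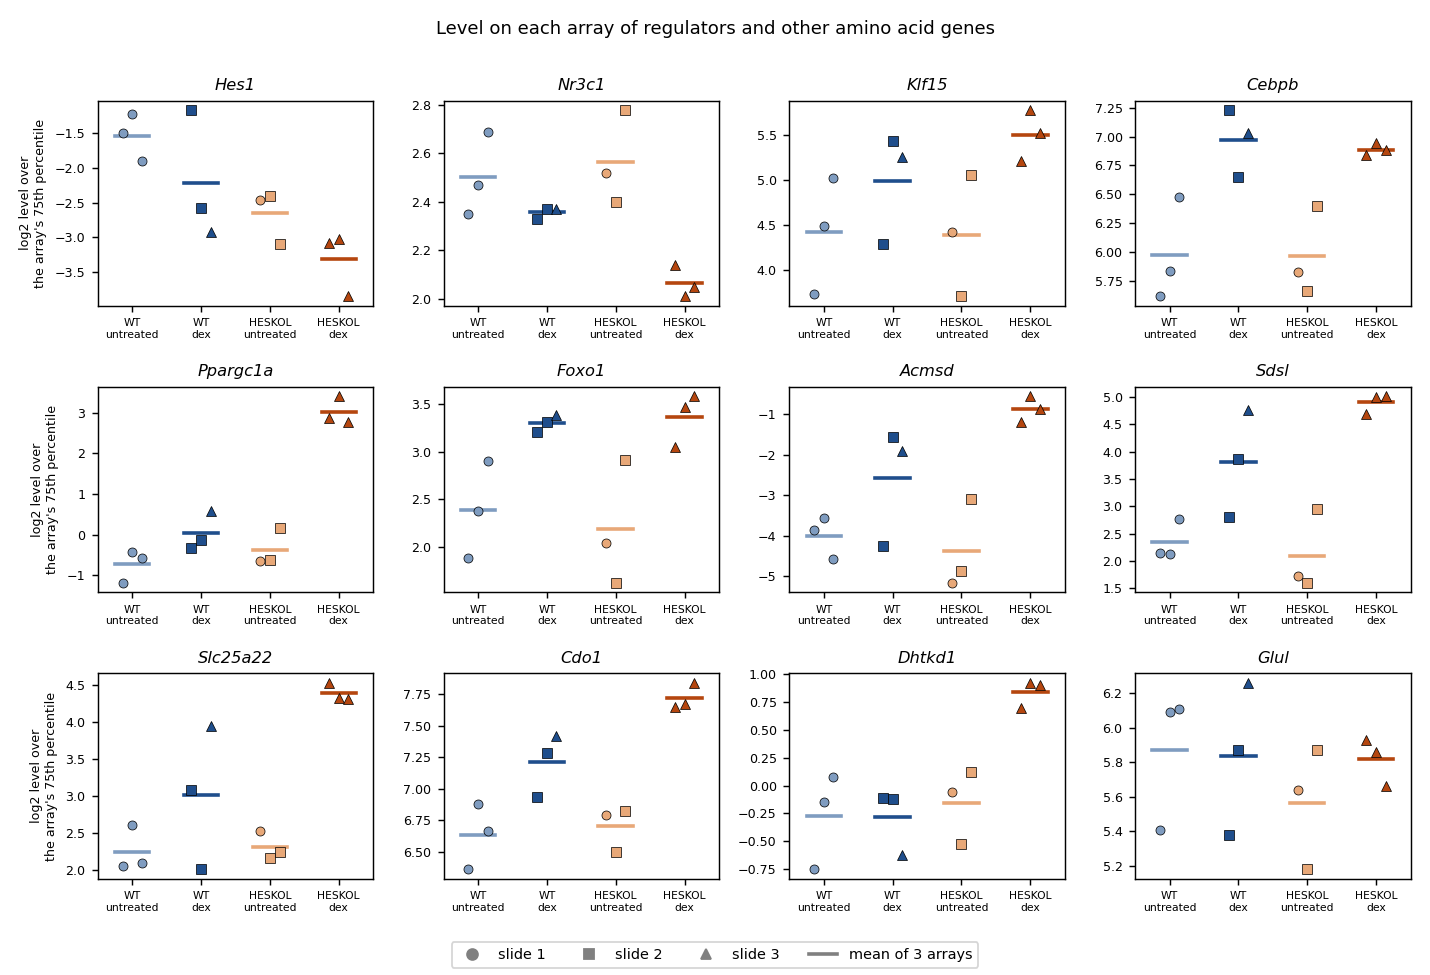
Level on each array (log2 over the array's 75th percentile, y axis) of Hes1, 5 regulators and 6 other amino acid genes in the 4 groups, with lines at the mean of 3 arrays and marker shapes for the slide. Treated HESKOL mice stand at 2.78 to 3.41 for Ppargc1a, above a highest value of 0.57 elsewhere, and all 3 treated HESKOL mice were on slide 3.

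Markers of liver cells were read beside these changes, and in whole liver fewer cells of a type and less RNA per cell cannot be told apart. All 8 measured hepatocyte markers were well above background on every array. Their median change was 0.07 in HESKOL, with 1 of the 8 lower (Ttr, a plasma carrier protein, -1.54 ± 0.30), and 0.24 in wild type. Of 8 markers of hepatocytes around the portal vein, 2 passed as higher in HESKOL (Hsd17b13 and Sdsl), with 5 changes above 0 and 3 below. The summed linear level of the 8 ran from 336 to 695 untreated and from 585 to 711 treated in HESKOL. Of 10 markers of hepatocytes around the central vein, 4 passed as lower in HESKOL: Cyp1a2 (-1.95 ± 0.27), Lgr5 (-3.18 ± 0.64), Gulo (-0.90 ± 0.19) and Axin2 (-1.47 ± 0.37). In all, 7 of the 10 changes were below 0 and 3 above (Glul, Cyp2e1 and Slc1a2). Of the 18713 features 791 were called lower. Cyp1a2 passed in all 12 fits with 1 mouse left out, Lgr5 and Gulo in 8 and Axin2 in 4. With slide in the fit none of the 4 passed, at -1.94 ± 0.52 in Cyp1a2, -0.92 ± 0.93 in Lgr5, -0.50 ± 0.36 in Gulo and -1.82 ± 0.76 in Axin2. The sum of the 10 ran from 411 to 573 untreated and from 381 to 419 treated in HESKOL, against 449 to 587 and 522 to 592 in wild type.

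Non-hepatocyte markers moved less evenly. In HESKOL the median change was -0.74 over 10 Kupffer cell markers (Cd163 higher, Adgre1 lower), -1.30 over 10 lymphocyte markers (Cd79a lower) and -0.07 over 8 endothelial markers (Lyve1 higher, Kdr lower). It was 0.08 over 8 stellate and -0.34 over 6 tested bile duct markers, none of which passed, and on none of the 12 arrays was Sctr, a bile duct marker, well above background. The neutrophil sum ran from 9.55 to 280 in untreated HESKOL, from 2.29 to 37.9 in treated HESKOL, from 15.1 to 368 in untreated wild-type and from 18.4 to 166 in treated wild-type mice, and the median change of 7 markers was -2.66 in HESKOL and -0.52 in wild type, with none past the threshold. The 2 tested adipocyte markers, Cidea and Fabp4, rose in HESKOL by 2.41 ± 0.31 and 1.91 ± 0.39, with Lep well above background on none of the 12 arrays, and the 3 tested red cell markers had a median of -0.17. In wild type the median change was -0.19 over the Kupffer cell, -0.74 over the lymphocyte, 0.04 over the endothelial, 0.11 over the stellate and 0.23 over the bile duct markers, and 1.37 over the red cell and 1.15 over the adipocyte markers. The part of these markers in the members' changes was not tested.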

How the data were processed

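Liver RNA of 12 mice was read on 12 arrays. Per the file headers, the authors extracted spot intensity values in Agilent's Feature Extraction 9.5.3.1, and the processed signal is already background-corrected. The deposited series table holds the same intensity values (ratio 1). Each array file has 45018 spots, 1639 of them controls.

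From these, log2 processed signal minus the array's 75th percentile over non-control spots was computed. Outlier spots were left out, saturated ones kept, and spots of a probe averaged. Of 41174 probes, 22951 were named by accession, 9768 by symbol or synonym, 1388 by the file's own name, and 7067 had none. A feature was tested where some group had it well above background on each of its 3 arrays. Group means over 12 arrays were fitted with limma 3.58.1 (lmFit, eBayes; 8 residual and 3.13 prior degrees of freedom) in R 4.3.3, with Benjamini-Hochberg adjustment and a threshold of 0.05. The fit was tested on simulated data.

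The members, lists, comparisons and alternatives were chosen with earlier results of these data known. Values on every array are given for members past the threshold in any comparison and for Tat, Tdo2, Sds, Hal, Cps1, Arg1, Otc and Gpt. Other pathway genes are named by the 5 largest called changes, or the 3 smallest p where none passed, with Hes1, Nr3c1, Klf15, Cebpb, Ppargc1a and Glul in any case. Ttr, Foxo1 and the markers were added after their values were seen. Alternatives were other scalings, background correction, filters, probe rules, slide and replicate blocks, a stricter threshold, and leaving out each mouse.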

Additional observations from a re-analysis of the deposited data

How the results depend on the processing

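With 1 mouse left out, the number of members called ranged from 0 to 4 for dexamethasone in wild-type liver, from 3 to 16 in HESKOL liver, from 7 to 14 averaged over genotypes, from 0 to 2 between the genotypes after dexamethasone and from 0 to 1 averaged over treatments. In wild-type liver 1 member was called after quantile normalization, after normexp with quantile normalization, and with slide as a random block. Between the genotypes after dexamethasone 0 were called with quantile normalization, with no filter on dim probes, with slide as a fixed block, with the replicate block, at an adjusted p under 0.01 and with only the groups compared, 3 with normexp and 6 on the deposited table without scaling. With slide as a fixed block, 0 members were called in HESKOL liver (median change 0.95) and 0 averaged over genotypes (median 0.62). The median of all features in that fit is not given here. At an adjusted p under 0.01, 2 were called in HESKOL liver and 5 averaged over genotypes. Without scaling, the members' median was -0.17 in wild-type liver, where the median of all features was -0.346, and the median difference of responses was 0.72. Median scaling moved the median of all features in HESKOL liver to 0.102, with 13 members called and a members' median of 0.80. No pairing of mice by replicate number is given in the sources used here. Deviations of same-numbered mice correlated at -0.4 to 0.623, which cannot decide it without other pairs beside them. With the replicate block 13 members were called in HESKOL liver. No result changed sign while called. Of the single-gene values under alternatives, 445 kept direction and side of the threshold and 168 kept direction only. Of the members' counts and medians under alternatives, 296 moved little and 41 moved beyond the limits set, 1.5 times for a count and 1 SD between replicates for a median; these are the values above. The causes were not tested. The counts of members called in this section are given without the share of all features called in the same fit. A shift in them cannot be read as particular to these genes. The number of arrays, 3 a group, limits all counts.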
